A study of Mus musculus with 4 samples.

Results

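The genes described here serve the unfolded protein response of the endoplasmic reticulum (ER). They are Hspa5, Hsp90b1, Xbp1, Dnajb9, Herpud1, Edem1, Sdf2l1, Pdia4, Creld2 and Calr, 10 of 28625 named genes on the array, and they were taken by name, with earlier results of these data known. They were measured by 11 of 39418 probes, and all 11 lay well above background on all 4 arrays. The samples were IMS32 cells, an immortalized line of adult mouse Schwann cells, kept for 1 h in DMEM with 5% FBS. In the order in which values are listed here, the groups were 5 mM glucose with 1 mM pyruvate, called [Glc 5 mM/Pyr (+)], then 5 mM glucose without pyruvate, called [Glc 5 mM/Pyr (−)], 15 mM glucose with 1 mM pyruvate, called [Glc 15 mM/Pyr (+)], and 15 mM glucose without pyruvate, called [Glc 15 mM/Pyr (−)]. Each group was 1 culture of 1 cell line on 1 single-colour array, so no difference between groups has a replicate check, and the number of arrays limits the precision.

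The ER folds proteins that enter the secretory route. When unfolded proteins accumulate there, the sensors IRE1, PERK and ATF6 signal to the nucleus. IRE1 splices the mRNA of Xbp1, ATF6 is cut to release a transcription factor, and PERK slows translation while favouring that of Atf4. The target genes encode chaperones, disulfide isomerases and proteins of ER-associated degradation (ERAD), the removal of misfolded proteins to the proteasome. Hspa5 and Hsp90b1 were first known as glucose-regulated proteins because cells deprived of glucose make more of them. Schwann cells secrete and insert large amounts of membrane and matrix protein.

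The values are background-corrected intensities of the scanner software, taken as log2 relative to the 75th percentile of each array, so that a level of 0 is the 75th percentile. A difference is the level on one array minus that on another. The error between spots of 1 probe was taken from 202 probes at least as bright as the dimmest of the 11 and printed repeatedly, with median SDs of 0.061 to 0.064 on the log2 scale. The resulting spread of a difference between 2 arrays, for a probe read from 1 spot on each, was 0.086 to 0.091. It covers error within an array and leaves out variation between cultures. The same 202 probes were each a mean of at least 5 spots. Of them, 27.2% (at 5 mM glucose) and 58.9% (at 15 mM) differed by more than this spread between the arrays with and without pyruvate. A value past it is thus common on these arrays.

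The [Glc 15 mM/Pyr (−)] array gave the highest level for 8 of the 10 genes (3 of 10 with scaling to spike-in controls), against 38.8% of all genes measured on all arrays, and the gaps were widest for Herpud1, Dnajb9 and Xbp1. Herpud1, Dnajb9 and Xbp1 were 1.55-fold, 1.48-fold and 1.25-fold higher without than with pyruvate at 15 mM glucose. The chaperones Hsp90b1 and Calr differed by 0.02 and 0.01 on the log2 scale in the same comparison. Of the 10 genes, 0 reached 2-fold in any of the 4 comparisons, against a background of 1.11% and 2.12% of all genes for pyruvate at 5 and 15 mM glucose, and 0.909% and 2.41% for glucose with and without pyruvate.

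Herpud1 encodes a membrane protein of the ERAD complex, and its probe lies on chromosome 8 from 96919117 to 96919176 in mm9. Its intensity, with the error given by the scanner software, was 2925 ± 292 and 3278 ± 328 at 5 mM glucose, with and without pyruvate, and 2755 ± 275 and 4351 ± 435 at 15 mM. The scaled log2 levels were 0.71, 0.91, 0.79 and 1.41 in this order. Both arrays without pyruvate thus stood above both arrays with it. The difference without pyruvate was 0.20 at 5 mM glucose, 2.23 times the spread, and 0.63 at 15 mM glucose, 7.28 times the spread. The larger of these values was above those of 97.3% of all genes measured, and the smaller above those of 92.2%. With scaling to the spike-in controls the difference at 5 mM glucose was 0.03, while at 15 mM glucose it was 0.60 to 0.63 over 9 alternatives.

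Dnajb9 encodes an ER J-domain protein that works with the chaperone encoded by Hspa5 and restrains IRE1. It was read by 2 probes, on chromosome 12 from 45307313 to 45307372 and from 45308272 to 45308331. The brighter probe gave intensities of 3262 ± 326, 2981 ± 298, 2942 ± 294 and, in [Glc 15 mM/Pyr (−)], 4421 ± 442. The dimmer probe gave 245 ± 24.6, 258 ± 25.9, 221 ± 22.3 and 336 ± 33.7 in the same order. On both probes [Glc 15 mM/Pyr (−)] was the highest and the other 3 arrays lay close together. At 15 mM glucose the differences without pyruvate were 0.56 and 0.57, so the probes gave the same size. At 5 mM glucose they were -0.09 and 0.11, opposite in sign, with a mean of 0.01.

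Xbp1 encodes the transcription factor that IRE1 activates by splicing, and its probe lies on chromosome 11 from 5425816 to 5425875. The array's annotation lists more than 1 RefSeq transcript of the gene for this probe, and spliced and unspliced Xbp1 were not separated. The intensity was 9573 ± 957, 9430 ± 943, 8895 ± 889 and, in [Glc 15 mM/Pyr (−)], 11334 ± 1133. Again 1 array was high and the other 3 were close, with scaled levels of 2.42, 2.44 and 2.48 against 2.80. The arrays without pyruvate stood above those with it by 0.02 at 5 mM, and by 0.32, or 3.69 times the spread, at 15 mM glucose.

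**Figure D1:**
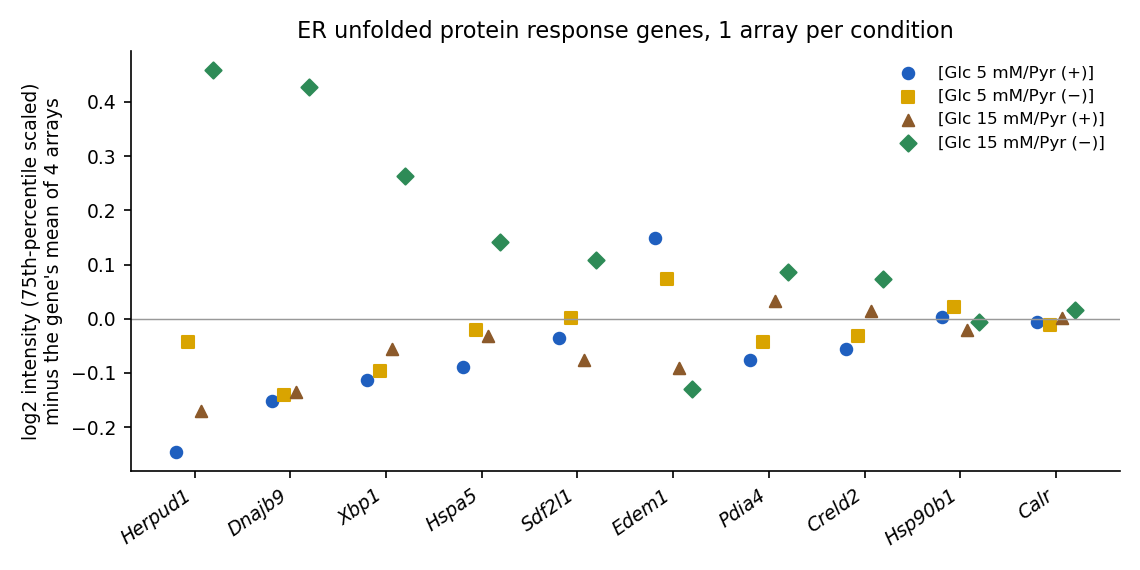
Scaled log2 intensity of each gene minus its mean over the 4 arrays (vertical axis), with 1 point per array and genes along the horizontal axis, Dnajb9 as the mean of 2 probes. The [Glc 15 mM/Pyr (−)] array stands apart for Herpud1, Dnajb9 and Xbp1, and the 4 points of Calr lie within 0.03 of each other.

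Hspa5 encodes BiP, the main Hsp70 chaperone of the ER, which also holds the sensors inactive. Its probe on chromosome 2 (34631913 to 34631972) had intensities of 66026 ± 6603, 67398 ± 6740, 61306 ± 6131 and 70646 ± 7065 in the 4 groups. The scaled levels of 5.21, 5.27, 5.26 and 5.44 put [Glc 15 mM/Pyr (−)] highest, and no spot was saturated. The difference without pyruvate was 0.07 at 5 mM glucose, within the spread, and 0.17 at 15 mM glucose, 2.02 times the spread.

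Sdf2l1 encodes a partner of this chaperone system, with its probe on chromosome 16 (17130426 to 17130485). Its intensities were 1153 ± 115, 1152 ± 115, 1001 ± 100 and 1162 ± 116 in the same order of groups. Its scaled levels were -0.63, -0.60, -0.67 and -0.49. The arrays without pyruvate stood above those with it by 0.04 at 5 mM and 0.18 at 15 mM. As with Hspa5, the second value was past the spread and the first was not. For both genes, however, the wider scanner errors of the intensities with and without pyruvate at 15 mM glucose overlapped.

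The other folding genes showed less. Hsp90b1 encodes GRP94, the Hsp90 chaperone of the ER, read on chromosome 10 (86153770 to 86153829), with scaled levels of 5.07, 5.09, 5.05 and 5.06. Calr encodes calreticulin, a calcium-binding chaperone of glycoproteins, read on chromosome 8 (87366192 to 87366251), with 3.38, 3.38, 3.39 and 3.41. The whole range over the 4 groups was 0.04 for Hsp90b1 and 0.03 for Calr, below the spread of any 2 arrays. Pdia4 encodes a disulfide isomerase, read on chromosome 6 (47746516 to 47746575), with -0.90, -0.87, -0.79 and -0.74. Its differences without pyruvate, 0.03 and 0.05, were within the spread, as were those of Creld2, 0.02 and 0.06. The spread is that of 1 spot, however, and Creld2, a mean of 9 or 10 spots, has a smaller error.

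Creld2, an ER stress-responsive gene for a protein with disulfide isomerase activity, was the member printed 10 times on each array, on chromosome 15 (88656997 to 88657056). Its SD between spots was 0.07, 0.06, 0.06 and 0.06 in the 4 groups, with 9 spots kept in [Glc 15 mM/Pyr (−)] and 10 in the others. Its scaled levels of 3.56, 3.59, 3.63 and 3.69 stayed within 0.13 of each other.

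Edem1 had another order. It encodes a lectin-like protein that passes misfolded glycoproteins to ERAD and is a known target of Xbp1, and its probe lies on chromosome 6 (108808920 to 108808979). Its intensities were 2518 ± 252 and 2328 ± 233 at 5 mM glucose, with and without pyruvate, and 1905 ± 190 and 1894 ± 189 at 15 mM. Both arrays of 5 mM glucose stood above both arrays of 15 mM glucose. In the presence of pyruvate, 15 minus 5 mM glucose gave -0.24, 2.70 times the spread, and in its absence -0.20, 2.30 times the spread. It was negative under all 9 alternatives in both comparisons. The differences with pyruvate removal, -0.08 and -0.04, were within the spread.

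Over the 10 genes, the median difference without pyruvate was 0.021 at 5 mM glucose, where the median of all genes was -0.018, and 0.12 at 15 mM glucose, where that of all genes was 0.033. At 5 mM glucose, 1 of 10 genes (Herpud1) was higher by more than the spread, against 19.2% of all genes, and 0 were lower, against 30.1%. At 15 mM glucose, 5 of 10 (Herpud1, Dnajb9, Xbp1, Hspa5 and Sdf2l1) were higher by more than the spread and 0 were lower, against 38.2% and 28.0% of all genes. The count at 15 mM glucose is thus not far above the background. By size, the differences of Herpud1, Dnajb9 and Xbp1 were above those of 97.3%, 96.7% and 91.1% of all genes. Herpud1 alone passed 1.5-fold, 1 of 10 against 3.09% of all genes in that direction. The first 3 genes lay 0.43, 0.55 and 0.30 higher in their pyruvate difference at 15 than at 5 mM glucose. These values were above those of 91.1%, 94.9% and 84.4% of all genes, and this dependence on glucose was not tested.

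For glucose, the median of the 10 genes was 0.036 with pyruvate and 0.12 without, beside -0.021 and 0.036 over all genes. With pyruvate, Pdia4 was higher (0.11) and Edem1 lower by more than the spread, 1 of 10 each against 22.2% and 34.2% of all genes. Without pyruvate, 7 of 10 were higher by more than the spread and Edem1 was lower, against 39.9% and 29.9%. The largest of these differences were 0.57 for Dnajb9, 0.50 for Herpud1 and 0.36 for Xbp1. The comparisons with and without pyruvate share arrays with those above, so the high level of [Glc 15 mM/Pyr (−)] enters both. With scaling to the spike-in controls, which moved the median of all genes by -0.30 with pyruvate and -0.15 without, the count of genes above 0 went from 7 to 0 of 10 with pyruvate (all genes, from 44.5% to 3.22%) and from 8 to 4 of 10 without (all genes, from 56.6% to 27.7%). This follows from a shift common to all genes of an array. Dnajb9, Herpud1 and Xbp1 were above 0 without pyruvate in all 9 alternatives.

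**Figure D2:**
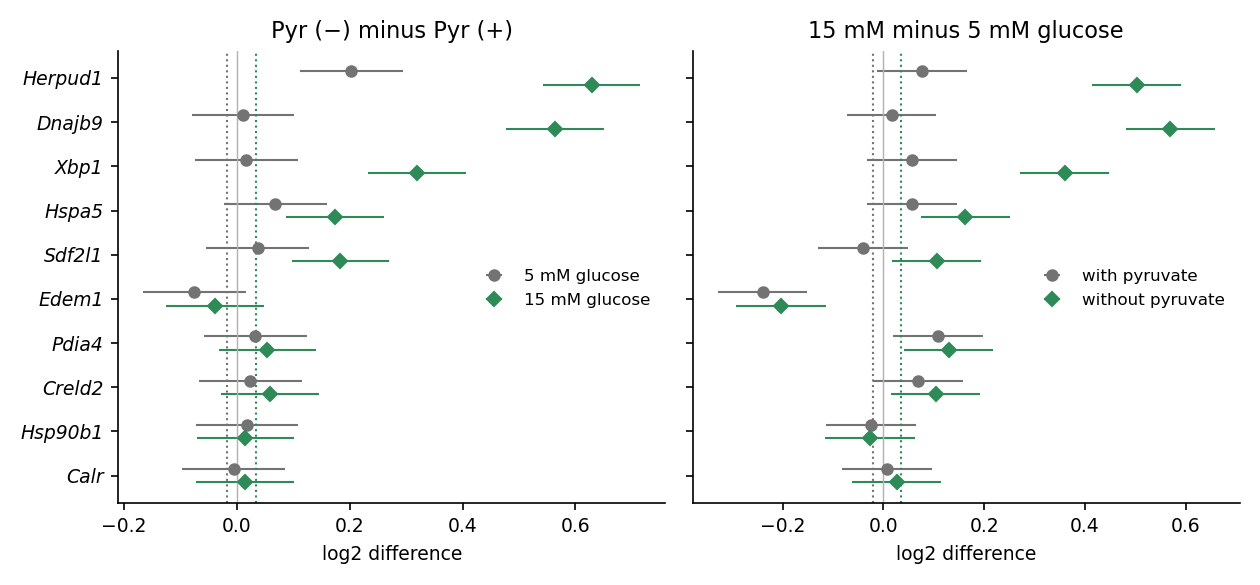
Log2 differences of the 10 genes for pyruvate (left, 5 and 15 mM glucose) and for glucose (right, with and without pyruvate). Bars are the spread between spots for a probe read from 1 spot, which leaves out variation between cultures. Dotted lines are the medians of all genes in the same colours. The diamonds of Herpud1, Dnajb9 and Xbp1 lie at 0.63, 0.56 and 0.32 on the left, and both symbols of Edem1 lie below 0 on the right.

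Edem1 and Hsp90b1 were the genes for which [Glc 15 mM/Pyr (−)] was not the highest array. Edem1 was highest in [Glc 5 mM/Pyr (+)], and Hsp90b1 was highest in [Glc 5 mM/Pyr (−)]. In 3 of the other 8 genes (Pdia4, Creld2 and Calr) the gap to the next array was 0.01 to 0.06, below the spread. For Creld2, a mean over repeated spots, this single-spot spread is too wide. The order thus rests mainly on the other 5. With spike-in scaling the count of genes highest in [Glc 15 mM/Pyr (−)] was 3 of 10, where the share of all genes was 7.22%, and it was 7 to 8 with the other alternatives.

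An additive fit of pyruvate and glucose in limma, with 1 residual degree of freedom over the 4 arrays, called 0 of 31278 probes (0.0%) for pyruvate and 0 (0.0%) for glucose after Benjamini-Hochberg adjustment. Without adjustment, 1082 and 1492 probes had p under 0.05, among them 0 of the 11 probes described here. With normexp and with an intensity trend, 1 of the 11 had an unadjusted p under 0.05 for each term, and with probes well above background on all arrays 1 had it for pyruvate. The estimate for pyruvate was 0.42 ± 0.16 (SE) for Herpud1, with an adjusted p of 0.99 in limma, and the estimate for glucose was -0.22 ± 0.09 for Edem1, with an adjusted p of 0.77. This fit counts any dependence of one effect on the other as error, and Dnajb9, Herpud1 and Xbp1 had unequal pyruvate differences at 5 and 15 mM glucose.

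The response acts through DNA elements near the start of its target genes. The promoters of the 5 genes with an exact ERSE or ERSE-II are shown so that these elements can be set beside the differences. The ER stress response element (ERSE), CCAAT and CCACG with 9 free bases (N) between them, is bound by ATF6 together with NF-Y, and ERSE-II, ATTGG and CCACG with 1 free base, is a shorter form of it. The core TGACGTG of the unfolded protein response element (UPRE) is bound by XBP1 and ATF6, and the core TGATGNAA of the CARE element by ATF4 with C/EBP partners. Both strands were searched in the 300 bases around the RefSeq start of each gene (GRCm38.p6), and all 10 genes had a window. An exact ERSE was found for 4 genes, Hspa5, Hsp90b1, Creld2 and Calr, and in 0.119% of all 32851 windows. ERSE-II was found for Herpud1, with 0.0365% of all windows, and the CARE core also for Herpud1, with 3.97%. The UPRE core was found for Hspa5, with 2.01%. For Xbp1, Dnajb9, Edem1, Sdf2l1 and Pdia4 these exact letters were not in the window. ERSE and ERSE-II share these short parts in another spacing and orientation, and the parts alone were common, CCAAT in 37.4% and CCACG in 32.8% of all windows and each in 9 of the 10 genes, all but Xbp1. The stretches with the elements are given below 5′ to 3′ on the strand of the gene, with each element, on either strand, in capitals.
Herpud1 (chr8:94386297-94386407, plus strand): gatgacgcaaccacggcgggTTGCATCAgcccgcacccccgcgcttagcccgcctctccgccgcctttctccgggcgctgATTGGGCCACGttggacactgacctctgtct
Hspa5 (chr2:34771913-34772063, plus strand): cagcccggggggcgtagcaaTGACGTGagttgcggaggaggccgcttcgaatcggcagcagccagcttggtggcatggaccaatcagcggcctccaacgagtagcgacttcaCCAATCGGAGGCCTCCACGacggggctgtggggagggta
Hsp90b1 (chr10:86705513-86705676, minus strand): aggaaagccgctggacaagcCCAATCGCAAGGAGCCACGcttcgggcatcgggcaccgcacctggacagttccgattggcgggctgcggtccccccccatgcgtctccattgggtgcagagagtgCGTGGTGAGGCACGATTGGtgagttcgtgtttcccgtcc
Creld2 (chr15:88819500-88819558, plus strand): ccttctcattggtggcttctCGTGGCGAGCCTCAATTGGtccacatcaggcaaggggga
Calr (chr8:84847055-84847113, minus strand): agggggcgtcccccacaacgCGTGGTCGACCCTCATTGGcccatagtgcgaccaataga

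The ERSE of Hspa5 spans bases -65 to -47 from the start, the ERSE-II of Herpud1 -52 to -42 and its CARE core -112 to -105, the latter on the opposite strand. Hsp90b1 has an ERSE on each strand, at -212 to -194 and -107 to -89. The differences without pyruvate at 15 mM glucose of the 4 genes with an exact ERSE were 0.17 for Hspa5, 0.02 for Hsp90b1, 0.06 for Creld2 and 0.01 for Calr. Herpud1, the gene with ERSE-II and the CARE core, had 0.63. The genes with none of the 4 elements in this window ranged widely. They were Dnajb9 with 0.56, Xbp1 with 0.32, Sdf2l1 with 0.18, Pdia4 with 0.05 and Edem1 with -0.04. These matches are descriptions of the sequence, and binding of any factor was not measured.

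**Figure D3:**
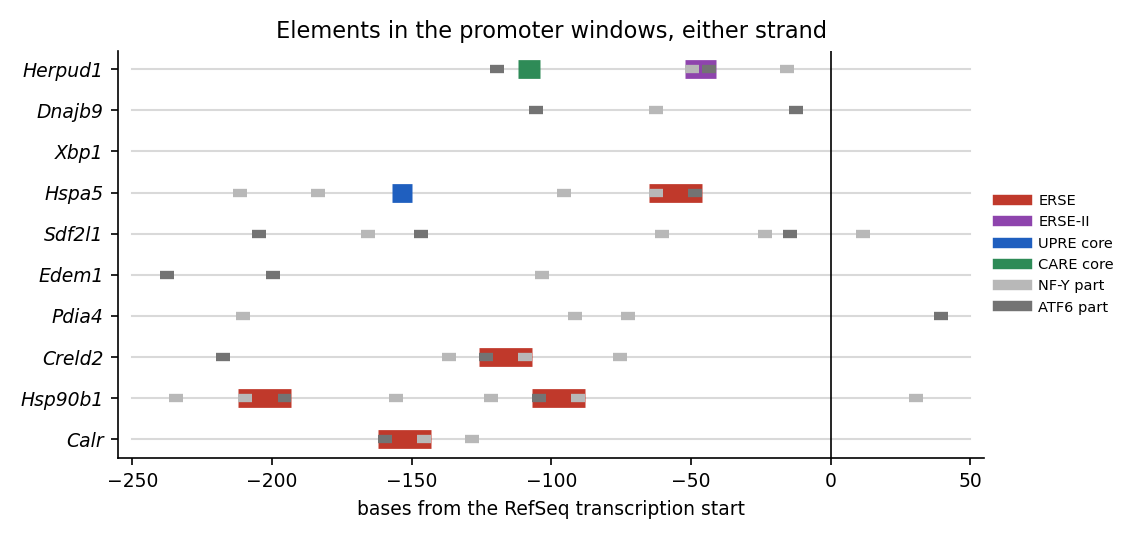
Positions of exact element matches (coloured bars) and of the NF-Y (CCAAT) and ATF6 (CCACG) parts of ERSE (grey, either strand) from 250 bases before to 50 bases after the RefSeq start of each gene, with the start at 0. Red ERSE bars stand for Hspa5, Creld2, Hsp90b1 and Calr, and Herpud1 has ERSE-II and the CARE core.

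The remaining genes of the response were taken from 5 lists. Among 16 sensors and transcription factors, 5 were higher and 5 lower by more than the spread without pyruvate at 15 mM glucose. The shares of all genes were 38.2% higher and 28.0% lower, so neither count stood far from the background. Of the sensors, Ern1 (IRE1) differed by -0.15, Eif2ak3 (PERK) by -0.11 and Atf6 by -0.19, past the spread, as 28.0% of all genes were in that direction, and negative under all 9 alternatives. Their relatives Ern2 and Atf6b differed by 0.11 and 0.06. At 5 mM glucose Ern1, Eif2ak3 and Atf6 differed by 0.16, -0.02 and -0.08. Atf4, which encodes the factor favoured by PERK, differed by 0.51 at 5 mM and 0.98 at 15 mM glucose as the mean of 2 probes. Ddit3, which encodes CHOP, a factor downstream of Atf4, differed by 0.56 and 1.08. The median of the list was -0.0002 and 0.043, and 1 of 16 genes, Ddit3, passed 2-fold at 15 mM glucose, against 0.977% of all genes in that direction. The largest difference of this list for glucose with pyruvate was -0.38 for Ern2, which was dim here (39.9 to 58.0).

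Of 10 genes of the PERK-ATF4 branch, 4 passed 2-fold without pyruvate at 15 mM glucose, all higher, against 0.977% of all genes. In the same direction 6 passed 1.5-fold, against 3.09% of all genes. They were Ppp1r15a (1.08), which encodes the subunit that ends the PERK signal, Ddit4 (1.06), Chac1 (1.05), Atf3 (1.00), Trib3 (0.70) and Sesn2 (0.69). Nupr1 (0.49), Cebpb (0.42), Eif4ebp1 (0.09) and Asns (-0.06) did not pass. At 5 mM glucose Eif4ebp1 and Asns differed by -0.02 and 0.01. Atf3 lay at the threshold and was 0.95 to 1.00 over the alternatives. The medians were 0.38 at 5 mM and 0.69 at 15 mM glucose, beside 0.021 and 0.12 for the 10 genes described above. The list was chosen with results for these genes known, so its direction is not independent evidence. Its name states where its genes are placed in the response. PERK activity was not measured, and whether PERK signalling had a part in these differences was not tested. For glucose without pyruvate, Ddit4 was highest, with 0.91.

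Among 22 other chaperones and folding enzymes, 0 passed 1.5-fold without pyruvate, against 3.3% of all genes at 5 mM and 6.59% at 15 mM glucose, with medians of -0.011 and 0.028. The largest differences were -0.23 for Ero1l, which encodes an ER oxidase, at 5 mM glucose and -0.29 for Hyou1, an ER chaperone, at 15 mM glucose. Dnajc10, with 0.23 at 5 mM glucose, nearly matched Ero1l in size in the other direction. Hyou1 was dim here, with intensities of 148 to 207. For glucose, Fkbp11, a prolyl isomerase of the ER, differed by 0.37 with pyruvate and 0.64 without, the second past 1.5-fold from intensities of 170 at 5 mM and 248 at 15 mM glucose. The second value was 0.48 with spike-in scaling and stayed past 1.5-fold in 7 of 9 alternatives. For the arrays without minus with pyruvate at 15 mM glucose, the highest difference of this list was 0.20, below those of Dnajb9, Herpud1 and Xbp1.

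Of 17 other ERAD genes, 16 were measured and Derl3 was not, since its probe was not well above background on both arrays of any comparison. Their medians were -0.045 and 0.051. Edem2, a relative of Edem1, was 0.66 higher without pyruvate at 15 mM glucose, from intensities of 153 to 248, and 0.47 with normexp background correction, below 1.5-fold. Erlec1, an ER lectin, was the lowest, with -0.56 at 15 mM glucose and -0.55 for glucose without pyruvate. At 5 mM glucose the largest difference was -0.13 for Sel1l, a core subunit of the ERAD complex, and for glucose with pyruvate -0.20 for Ubxn4. Translocation and secretory transport, with 21 genes, had medians of -0.017 and 0.040 and 0 genes past 1.5-fold, against the same shares of all genes. The largest values were -0.24 for Sec24d at 5 mM and 0.31 for Sar1b at 15 mM glucose, and for glucose -0.19 for Sec24d with pyruvate and 0.43 for Kdelr3 without.

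**Figure D4:**
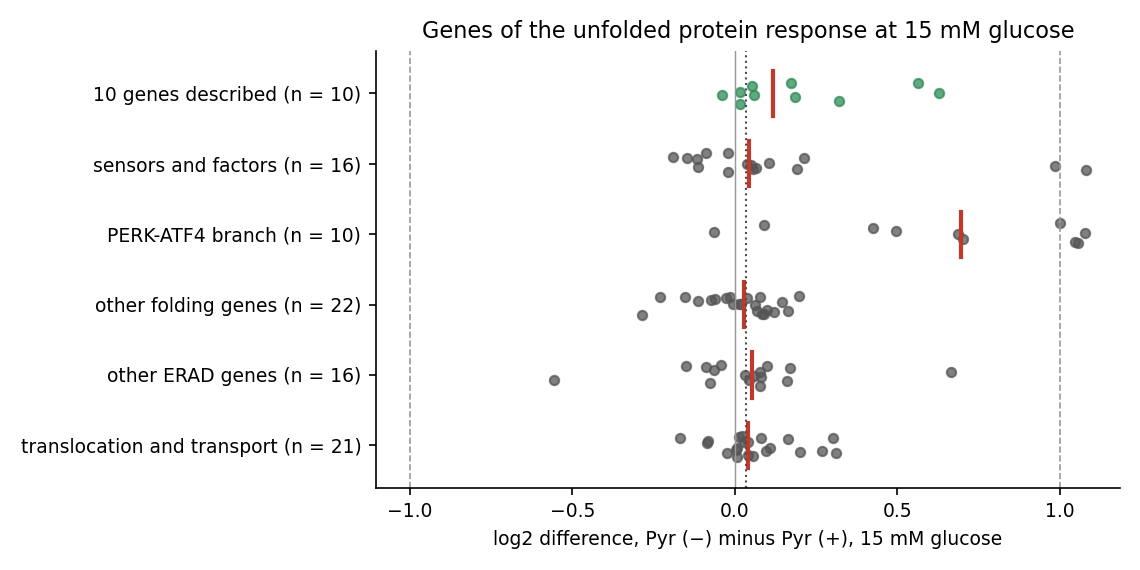
Log2 differences without pyruvate at 15 mM glucose for the 10 genes described (green) and 5 lists of other genes of the response (grey), with 1 point per gene. Red bars are medians, dashed lines mark 2-fold and the dotted line is the median of all genes at 0.033. The PERK-ATF4 branch has a median of 0.69 and the other folding genes one of 0.028.

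The gene with the widest range over the 4 arrays was Herpud1, with 0.71 on the log2 scale. Among 18938 genes with every probe well above background on all 4 arrays, the 3 whose centred levels lay nearest to it were Il5, 4931440P22Rik and Zfand5, at Euclidean distances of 0.038, 0.040 and 0.042. Their differences without pyruvate at 15 mM glucose were 0.68, 0.59 and 0.58. Il5 was dim, with intensities of 14.0 to 22.9, and Zfand5 was at 563 to 860. With 4 arrays such likeness is a description.

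For the identity of the cells, all 11 Schwann cell markers used had a probe well above background on all arrays. Sox10 was at 4837 to 5667 and Ngfr at 14823 to 18038, while Erbb3 (15.6 to 22.2), Gfap (52.9 to 76.4) and L1cam (108 to 130) were dim. Of markers of other cells, 5 of 6 for fibroblasts, 5 of 5 for macrophages, 2 of 4 for endothelial cells and 2 of 4 for neurons were well above background on all arrays, and Cdh5, Tie1 and Syt1 were so on none. The fibroblast marker Col1a2, at 85784 to 91960, was brighter than any Schwann cell marker. It made up most of the summed fibroblast intensity of 93742, 92898, 88974 and 87593 in the 4 groups. The summed intensity of the Schwann cell markers was 93564, 88083, 84049 and 74867 in the 4 groups, and that of the macrophage markers was 2714, 2662, 2325 and 3173. The Schwann cell and macrophage sums stood apart in [Glc 15 mM/Pyr (−)], the array on which Herpud1, Dnajb9 and Xbp1 were high. The part of these sums in that result was not tested. In these bulk samples fewer cells of a type and less RNA per cell cannot be told apart. Because each condition has 1 culture, a difference in handling of that culture and an effect of the medium cannot be told apart either.

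**Figure D5:**
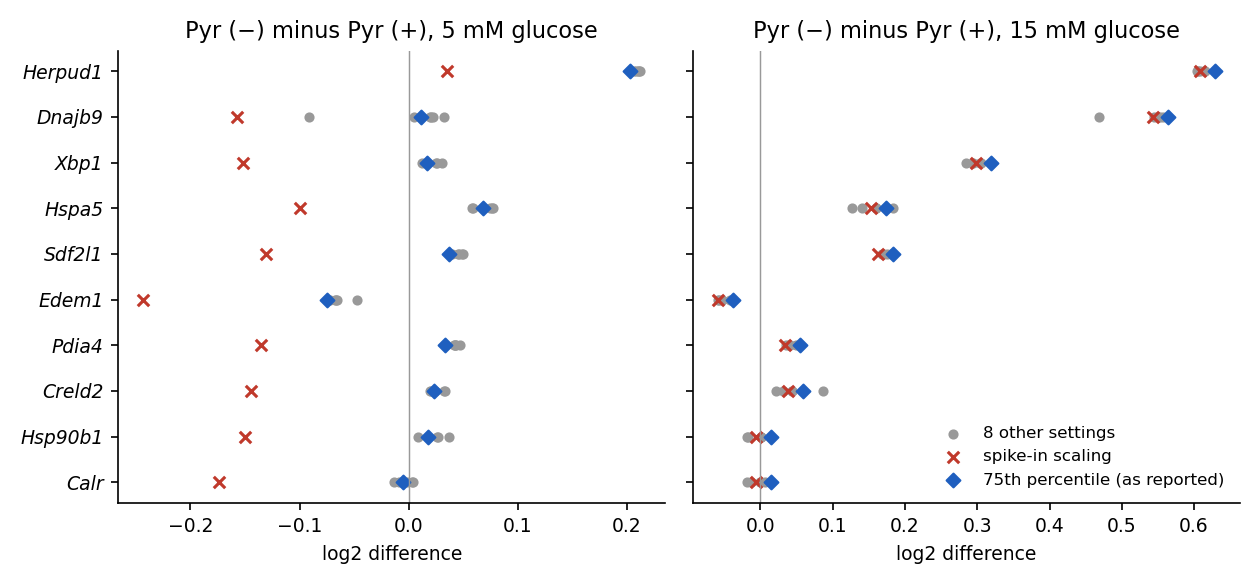
Log2 differences without pyruvate of the 10 genes at 5 mM (left) and 15 mM glucose (right) under the reported setting (blue), spike-in scaling (red) and 8 other alternatives (grey). Spike-in scaling moved the values at 5 mM glucose by -0.17, which put 9 of 10 below 0. At 15 mM glucose the alternatives gave at least 0.60 for Herpud1, 0.47 for Dnajb9 and 0.28 for Xbp1.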

How the data were processed

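Total RNA of the 4 cultures was labelled with Cy3 and hybridized to Agilent mouse arrays on 1 slide. The authors deposited scanner output of Feature Extraction 11.5.1.1, with a background-corrected intensity and its error for each spot and probe positions in mm9. The version is from the submitters' processing notes. The authors also deposited a table of ratios, in which each intensity is divided by its array's 75th percentile.

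Control and outlier spots were left out, spots of 1 probe were averaged as log2 values, and the 75th percentile of each array over the 39418 probes with a value on all arrays (1598 to 1789 in intensity) was subtracted. Of these probes, 28470 to 30343 were well above background. Differences were averaged over the probes of a gene that were well above background on both arrays compared, and a gene with no such probe was not measured. The thresholds were 2-fold and 1.5-fold. The calculations used limma 3.58.1 in R 4.3.3 and Python 3.11.15 and were tested on simulated data. Promoters are from RefSeq GRCm38.p6.

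The genes and lists were chosen with earlier results of these data known. Named genes are the 10 members, the sensors with Atf4 and Ddit3, list genes past 1.5-fold, the largest of each list in each comparison, and the 3 nearest in pattern to the member with the widest range. A cell type marker of the design is not reported here. The markers, the genes named as unmeasured, Atf6b, Dnajc10 and the genes of the PERK-ATF4 branch below 1.5-fold fall outside this rule. Alternatives were 4 other scalings, normexp (offset 50), the deposited ratio, the brightest probe, 2 filters, the 1.5-fold threshold in place of 2-fold, and limma with a trend on intensity.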

Additional observations from a re-analysis of the deposited data

How the results depend on the processing

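Over 9 alternatives, 360 values of single genes were recalculated and 39 moved by more than the spread between spots, 30 of them with spike-in scaling. The 2 filters could not move any value, since all 11 probes were well above background on all arrays. Taking the brightest probe could move only Dnajb9, the gene with 2 probes. Counts over 9 alternatives given above include these settings. Of 16 values past the spread, 4 changed sign in some alternative. Spike-in scaling, which uses 9 of 10 control probes, moved the median of the 10 genes to -0.147 (pyruvate at 5 mM glucose), -0.265 (glucose, pyruvate present) and -0.0356 (glucose, pyruvate absent), by shifting every gene of an array alike. Relative to all genes the medians with it were 0.039, 0.057 and 0.082, as in the reported setting. At 15 mM glucose the median for pyruvate stayed between 0.088 and 0.13. For glucose with pyruvate it was -0.0085 with quantile normalization and -0.0055 with cyclic loess. At the 1.5-fold threshold, 1 of 10 genes passed for pyruvate at 15 mM glucose in place of 0. The additive fit called 0 of the 11 probes under all its alternatives. No paired analysis was possible because each group has 1 array. All arrays lay on 1 slide, so no slide block was run, and without an array the additive fit has no residual degrees of freedom. Depth is signal over background here, and all 11 probes exceeded it.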
